A study of Mus musculus with 12 samples.

Results

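The genes described here bring fatty acids into fat cells and prepare them for use: Lpl, Vldlr, Cd36, Slc27a1, Fabp4, Fabp5, Acsl1 and Acsl4. They were read from every probe set that the platform annotation gives to only 1 of these 8 genes, a probe set being a group of short probes that together measure 1 transcript. On the Affymetrix array, 11 of 12422 probe sets met this rule and covered 7 of the 8 genes (of 8251 genes named in this way on the array), and Acsl1, an acyl-CoA synthetase, was named by none of them. Of the 11, 7 probe sets of 6 genes were bright enough to be tested, and both probe sets of Vldlr and 1 each of Cd36 and Acsl4 were too dim.

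RNA came from perigonadal adipose tissue of 12 mice, 3 in each of 4 groups, all labelled female, 6 months old and fed ad libitum. The adipose-GLUT4-Tg mice, here called overexpressors, carried a Glut4 transgene driven by the aP2 promoter, and their controls were littermates; both were of the FVB strain. The adipose-Glut4-/- mice, here called knockouts, were set against mice transgenic for aP2-Cre, and both were labelled as a C57B6/FVB/SV129 mix. Glut4 is the glucose transporter encoded by Slc2a4. aP2 is the older name of Fabp4, 1 of the 8 genes, so regulatory sequence of a gene described here drove the transgene in 1 line and Cre in the controls of the other. The aP2 promoter is known to be active also in some cells other than adipocytes.

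Fat cells take up fatty acids mainly from circulating lipoproteins. Lipoprotein lipase, made by adipocytes and carried to the capillary wall, frees the fatty acids; membrane proteins such as CD36 and FATP1 help them enter; small binding proteins carry them through the cytosol; and acyl-CoA synthetases join them to coenzyme A, which commits them to esterification or oxidation. Many genes of this route are known targets of PPARγ, the nuclear receptor that governs adipocyte differentiation. In an adipose sample, intensity of such a gene follows both the number of adipocytes and the RNA of each, and these cannot be told apart in bulk RNA.

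Values are the deposited intensities, on a linear scale in array units. Median intensity per array lay between 185.8 and 219.4, and the dimmest arrays were knockout control 3 and overexpressor 1. All 6 overexpressor-line arrays shared a smallest value of 21.9 and all 6 knockout-line arrays one of 22.27, so the lines appear to have been processed separately and no level is compared between them. Slc2a4 (102314_at), the targeted gene, had 625, 1109.7 and 1042 in overexpressors, against 639, 583 and 1212 in their controls, and the groups overlapped. It had 378, 365 and 363 in knockouts, against 416, 514 and 614 in aP2-Cre controls, lower on every knockout array. Its log2 fold changes were 0.22 (adjusted p = 0.930 in limma) and −0.43 (adjusted p = 1); which part of the transcript its probes read, and whether they read the transgene, is not given in the sources used here, so they do not check the labels.

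None of the 6 tested genes passed the test in the overexpressor or in the knockout, or differed between the 2 effects. The test was limma's, over all 7454 tested probe sets, with Benjamini-Hochberg adjusted p-values and a threshold of 0.05. At that threshold it called 0 of the 7 member probe sets in each comparison, where it called 0.0805% of all tested probe sets in the overexpressor, 0.121% in the knockout and 0.161% for the difference. At an unadjusted p under 0.05 the member count was 0 in the overexpressor (4.76% of all tested probe sets), 1 in the knockout (3.98%) and 0 for the difference (4.95%). In the knockout, Lpl by both of its probe sets and Fabp5 were higher on all 3 knockout arrays than on all 3 control arrays, 2 of 6 genes, where 5.62% of all tested probe sets showed groups separated in that direction. No tested member separated the overexpressors from their controls in either direction, where 8.77% of tested probe sets did so. The median log2 fold change of the 6 genes was 0.06 in the overexpressor, beside −0.07 over all tested probe sets, and 0.21 in the knockout, beside 0.04. The overexpressor median includes Acsl4, the lowest of the 6 there at −0.32, which rests on dim values in that line, as described below.

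**Figure D1:**
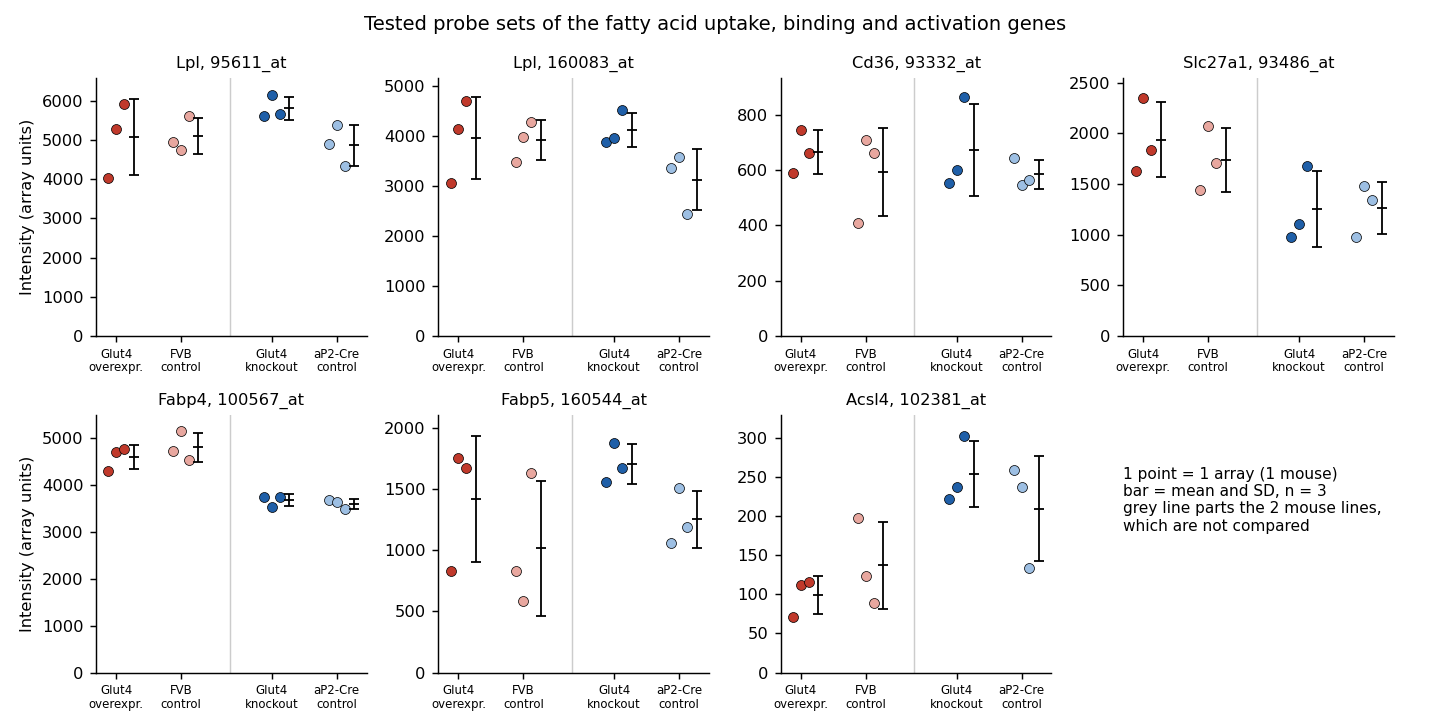
Deposited intensity (array units, linear axis from 0) of the 7 tested probe sets on each of the 12 arrays, with the mean and SD of each group of 3; the grey line parts the 2 mouse lines, whose levels are not compared. Knockout arrays lie above aP2-Cre control arrays for both Lpl probe sets and for Fabp5, and every other pair of groups overlaps.

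Lpl encodes lipoprotein lipase, which splits the triglycerides of chylomicrons and very low density lipoproteins. Its groups overlapped in the overexpressor line, where probe set 95611_at read 4025, 5284 and 5917 in overexpressors, against 4960.5, 4747 and 5626 in controls. The overexpressor arrays spanned the controls on both sides, with overexpressor 1 the lowest of the 6. The log2 fold change was −0.02 (SE 0.14, 95% interval −0.33 to 0.28, adjusted p = 0.987 in limma), and its sign turned when either overexpressor 1 or control 3 was left out (0.13 and 0.05) and under each scaling of the arrays that was tried. The other probe set, 160083_at, averaged 3967 ± 827 in overexpressors and 3922 ± 407 in controls (SD, n = 3 each), with an interval of −0.38 to 0.38 for its log2 fold change.

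Both Lpl probe sets separated knockouts from aP2-Cre controls. Probe set 95611_at read 5627, 6155 and 5673 in knockouts and 4896, 5384 and 4338 in aP2-Cre controls, so the lowest knockout stood above the highest control. Its log2 fold change was 0.26 (SE 0.14, interval −0.05 to 0.56, adjusted p = 1 in limma). Probe set 160083_at read 3890.1, 3967 and 4518 in knockouts and 3364, 3584 and 2437 in aP2-Cre controls, again without overlap. Its log2 fold change was 0.41 (interval 0.03 to 0.79, adjusted p = 1 in limma), the only member probe set with an unadjusted p under 0.05. Knockout control 3, the array with the lowest median intensity of the 12, gave the lowest value of both probe sets. Without that array and overexpressor 1 the knockout fold changes were 0.18 for 95611_at and 0.24 for 160083_at. Leaving out arrays cannot make separated groups overlap, so the separation of the remaining arrays is no further check. The difference between the overexpressor and knockout effects was −0.28 for 95611_at, with an interval of −0.71 to 0.15 that includes 0.

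Vldlr encodes the very low density lipoprotein receptor, which binds triglyceride-rich particles and is known to aid lipoprotein lipase in fat tissue. Its probe sets were below the limit of 157 on the mean over 12 arrays that a probe set needed to be tested. Probe set 96534_at read 79.7, 80.3 and 50.5 in overexpressors and 114, 106 and 93.7 in controls, lower on every overexpressor array. Of the 7454 tested probe sets, which do not include this one, 483 had groups separated in that direction. With no limit on dim probe sets, its log2 fold change was −0.41 (SE 0.12, interval −0.69 to −0.13, adjusted p = 0.826 in limma). The same probe set read 116, 118 and 138 in knockouts and 129, 100.3 and 112 in aP2-Cre controls, which overlapped, and the difference between the effects was −0.51 (adjusted p = 0.900 in limma). The other probe set, 160865_at, read 31.5, 23.95 and 27.8 in overexpressors and 35.6, 24.5 and 30.7 in controls. Those values lie close to the smallest value of the line, 21.9, so this probe set gives no second reading of the first in that line. Its mean was 191 ± 14.3 in knockouts and 186 ± 16.8 in aP2-Cre controls (SD, n = 3 each), with overlapping arrays.

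**Figure D2:**
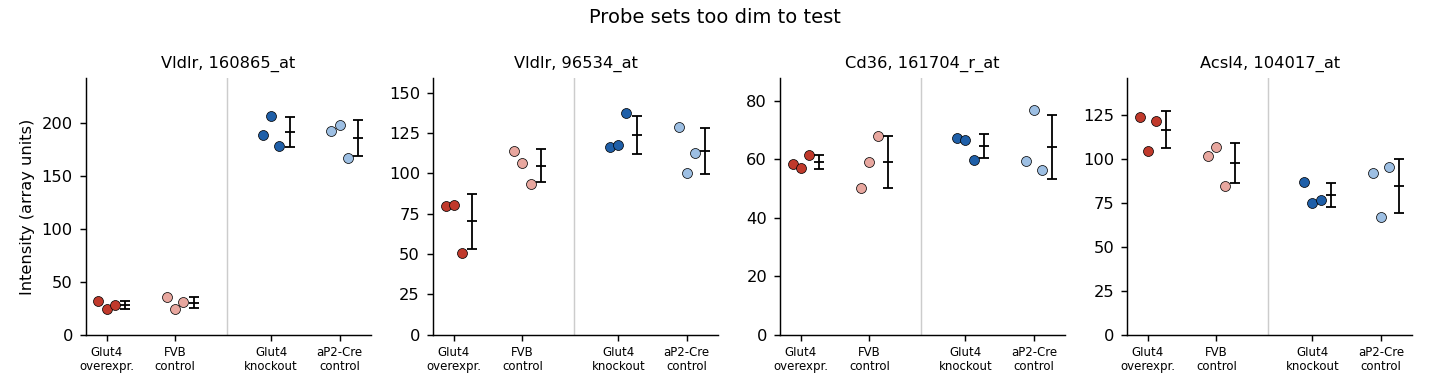
Deposited intensity (array units, linear axis from 0) of the 4 member probe sets too dim to be tested, on each of the 12 arrays, with group mean and SD (n = 3). Vldlr 96534_at is lower on the 3 overexpressor arrays than on the 3 FVB control arrays, as are 483 of the 7454 tested probe sets. The other Vldlr probe set lies near the smallest value of 21.9 in that line.

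Cd36 encodes fatty acid translocase, a membrane glycoprotein that binds long-chain fatty acids at the adipocyte surface. Slc27a1 encodes FATP1, a membrane transporter that also has acyl-CoA synthetase activity. Both are known PPARγ targets, and their start regions are shown because their intensities had the second highest correlation among the members, described further on, which did not pass after adjustment. The windows run from 250 bases before to 50 bases after a RefSeq transcript start on GRCm38.p6, at chr5:17835847-17836146 on the minus strand for Cd36 and chr8:71568621-71568920 on the plus strand for the most upstream of the 3 Slc27a1 starts. Capitals mark AGGTCA or its reverse complement, the core site bound by nuclear receptors, and CCAAT or its reverse complement.
Cd36: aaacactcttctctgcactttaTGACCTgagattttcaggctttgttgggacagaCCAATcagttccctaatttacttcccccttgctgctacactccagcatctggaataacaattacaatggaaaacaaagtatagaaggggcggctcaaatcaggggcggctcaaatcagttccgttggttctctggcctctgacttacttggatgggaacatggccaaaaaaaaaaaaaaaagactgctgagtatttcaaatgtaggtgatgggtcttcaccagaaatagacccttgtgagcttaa
Slc27a1: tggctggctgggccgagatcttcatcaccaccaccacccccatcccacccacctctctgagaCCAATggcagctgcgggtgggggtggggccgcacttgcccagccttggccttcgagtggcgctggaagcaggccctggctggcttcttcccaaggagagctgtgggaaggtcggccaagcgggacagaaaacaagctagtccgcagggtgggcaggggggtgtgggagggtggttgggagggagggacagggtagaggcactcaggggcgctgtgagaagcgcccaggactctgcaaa

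AGGTCA stood in the Cd36 window and in 16.3% of all 32851 RefSeq windows of this length, searched on both strands. CCAAT stood in the windows of both genes shown, in 1 of the other 2 Slc27a1 windows and in 37.4% of all windows. An exact PPAR repeat, 2 copies of AGGTCA in the same direction with 1 base between them, overlaps AGGTCA by definition. It stood in 0.0396% of all windows, searched the same way. None of the 9 windows of the 5 member genes that had a window (Cd36, Slc27a1, Vldlr, Acsl1 and Acsl4) held it. With so rare a match, its absence from 9 windows does not tell whether PPARγ binds near these genes. Fabp4, Fabp5 and Lpl had no window in the table. A match in letters describes the window and is no evidence of binding.

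Cd36 differed little in the means of either line. Probe set 93332_at read 589.8, 746 and 659.7 in overexpressors and 409, 707 and 661 in controls. Overexpressors lay within the range of the controls except for the highest of them, and control 1 was the lowest of the 6 arrays. The log2 fold change was 0.19 (SE 0.20, interval −0.25 to 0.63, adjusted p = 0.928 in limma), and −0.04 without control 1. In knockouts the probe set read 553, 600.3 and 864, and in aP2-Cre controls 644, 544 and 565. The 1 knockout above all controls set the sign of the fold change of 0.17 (interval −0.27 to 0.61, adjusted p = 1 in limma), which was −0.02 without it. A second probe set, 161704_r_at, stayed between 50.01 and 76.8 on all 12 arrays and carried little signal.

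Slc27a1 (93486_at) read 1628, 2347 and 1838 in overexpressors and 1439, 2068 and 1707 in controls, with overlapping groups. Its log2 fold change was 0.15 (interval −0.33 to 0.64, adjusted p = 0.939 in limma). In the knockout line it read 975, 1108 and 1681 in knockouts and 976, 1476 and 1340.1 in aP2-Cre controls. The means, 1255 ± 375 in knockouts and 1264 ± 258 in aP2-Cre controls (SD, n = 3 each), were nearly equal, with a log2 fold change of −0.03 (interval −0.51 to 0.46, adjusted p = 1 in limma). Leaving out knockout 1, knockout 2, control 2 or control 3 turned that sign, with values of 0.02 to 0.13.

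Fabp4 encodes the main fatty acid binding protein of adipocytes, the carrier whose promoter drove the Glut4 transgene of the overexpressors and Cre in the controls of the knockouts. Probe set 100567_at read 4298, 4714 and 4766 in overexpressors against 4737, 5152 and 4532 in controls. The log2 fold change was −0.06 (SE 0.09, interval −0.27 to 0.14, adjusted p = 0.935 in limma). In the knockout line it read 3747, 3539 and 3759 in knockouts and 3681, 3643 and 3488 in aP2-Cre controls, a log2 fold change of 0.03 (interval −0.17 to 0.23, adjusted p = 1 in limma). The groups overlapped in both lines, and the intervals exclude changes larger than 0.27 on the log2 scale in either direction.

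The Fabp4 values also scarcely varied between mice. The SD of its log2 values within groups was 0.07, which placed it at percentile 2.15 of all tested probe sets in order of spread, where the median probe set had 0.18. Its mean over 12 arrays was 4171, and its spread was not compared with that of probe sets of like brightness. The highest array of the 6 exceeded the lowest 1.20 times in the overexpressor line and 1.08 times in the knockout line.

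Fabp5 encodes the epidermal fatty acid binding protein, which adipocytes and macrophages both make. It lies on the same chromosome as Fabp4, and in the RefSeq annotation the only protein-coding genes between them are 2 further binding protein genes, Pmp2 and Fabp9. Its spread was at the other end of the scale, with a within-group SD of 0.49 on the log2 scale, at percentile 98.3 of tested probe sets. The highest array exceeded the lowest 3.01 times in the overexpressor line and 1.77 times in the knockout line. Among the other tested members the SD ran from 0.18 for Lpl 95611_at to 0.36 for Acsl4.

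Fabp5 (160544_at) read 829, 1755 and 1672 in overexpressors, against 827, 583 and 1634 in controls. The 6 arrays fell into a low and a high set, and each genotype was on both sides: overexpressor 1 and controls 1 and 2 were at or below 829, and overexpressors 2 and 3 and control 3 were at or above 1634. The log2 fold change was 0.52 (SE 0.33, interval −0.20 to 1.25, adjusted p = 0.913 in limma). Without overexpressor 1 it was 0.86 (adjusted p = 0.985 in limma), without control 3 it was 0.92 (adjusted p = 0.256 in limma), and without control 2 it was 0.20. With limma's array weights, which lower the influence of arrays that depart from their group, it was 1.25 (adjusted p = 0.00990 in limma), the only setting tried in which any member gene passed; with those weights 419 probe sets of all tested passed in the overexpressor.

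Fabp5 read 1561, 1878 and 1675 in knockouts and 1059, 1506 and 1191 in aP2-Cre controls, so every knockout stood above every control. The log2 fold change was 0.45 (SE 0.33, interval −0.28 to 1.17, adjusted p = 1 in limma). The difference between the overexpressor and knockout effects was 0.08, with an interval of −0.95 to 1.10.

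Acsl4 encodes an acyl-CoA synthetase that prefers arachidonic acid and similar long polyunsaturated fatty acids, and its 2 probe sets disagreed. Probe set 102381_at read 70.7, 111 and 115 in overexpressors and 198, 124 and 89.15 in controls, with overlapping groups, and its log2 fold change was −0.32 (interval −0.86 to 0.22, adjusted p = 0.913 in limma). Probe set 104017_at, too dim to be tested, averaged 117 ± 10.5 in overexpressors and 97.6 ± 11.4 in controls (SD, n = 3 each), the other way. Of the 2, 102381_at read 222, 237 and 302 in knockouts and 258, 236 and 133 in aP2-Cre controls, a log2 fold change of 0.27 (interval −0.27 to 0.81, adjusted p = 1 in limma) that was 0.02 without control 3. There 104017_at averaged 79.4 ± 6.63 in knockouts and 84.7 ± 15.3 in aP2-Cre controls (SD, n = 3 each). The difference between the effects of 102381_at was −0.59, with an interval of −1.35 to 0.17. This probe set passed the limit of 157 only through the knockout line: its means of 99.2 in overexpressors and 137 in controls lie under it, so the overexpressor fold change and the difference rest on dim values.

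**Figure D3:**
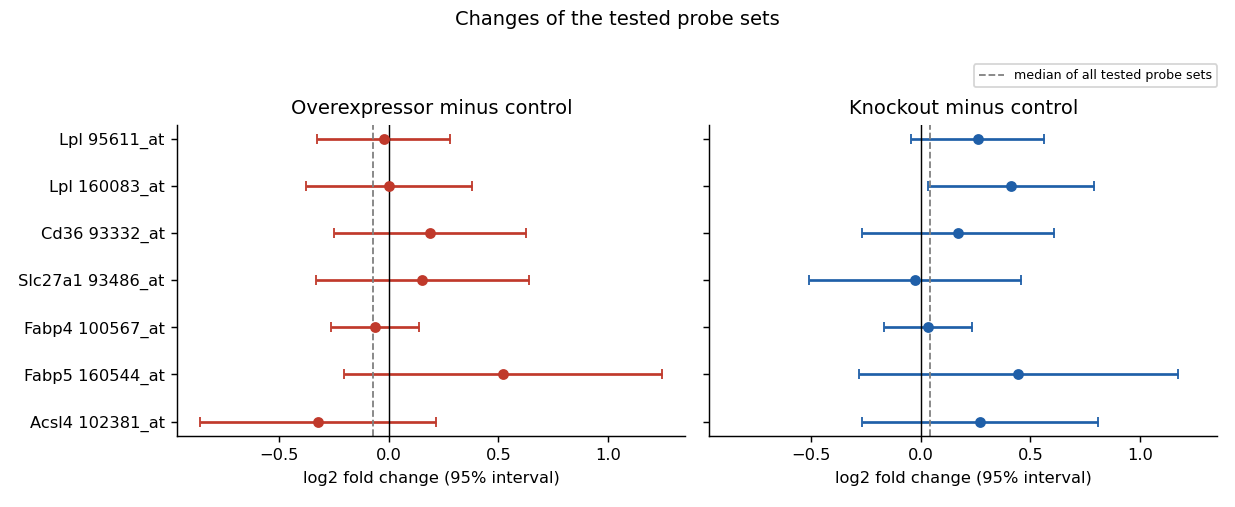
Log2 fold change with its 95% interval (limma) of the 7 tested member probe sets, overexpressor minus control on the left and knockout minus control on the right; the dashed line is the median of all tested probe sets. Every interval includes 0 except that of Lpl 160083_at in the knockout (0.03 to 0.79), which did not pass after adjustment.

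The members were then compared with each other from mouse to mouse, after each group's mean was taken away. Over 20 pairs of probe sets of different genes, the closest were Fabp5 and Lpl 95611_at, with Pearson's r = 0.81 (p = 0.0116, adjusted p = 0.231) and Spearman's rho = 0.80 (p = 0.0278, adjusted p = 0.370) over 12 arrays. The p-values are two-sided and exact, from all 1296 orders of the arrays within groups, and are adjusted by Benjamini-Hochberg over the 20 pairs. Without the 2 arrays farthest from the Lpl median, r was 0.76, and within lines it was 0.85 in the overexpressor line and 0.67 in the knockout line (6 arrays each). With the dimmer Lpl probe set, 160083_at, r was 0.55 (exact permutation p = 0.123, adjusted p = 0.491). Cd36 and Slc27a1 had r = 0.66 (exact permutation p = 0.0532, adjusted p = 0.355) and rho = 0.69 (p = 0.0455, adjusted p = 0.370), and r = 0.48 without the 2 arrays farthest from the Cd36 median. Within lines that r was 0.85 in the overexpressor line and 0.54 in the knockout line. Fabp4 and Fabp5, neighbours in family and on the chromosome, had r = −0.16 (exact permutation p = 0.751, adjusted p = 0.938) and rho = 0.01 (p = 0.992, adjusted p = 0.992). No pair passed after adjustment, and all pairs share the same arrays and their brightness.

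**Figure D4:**
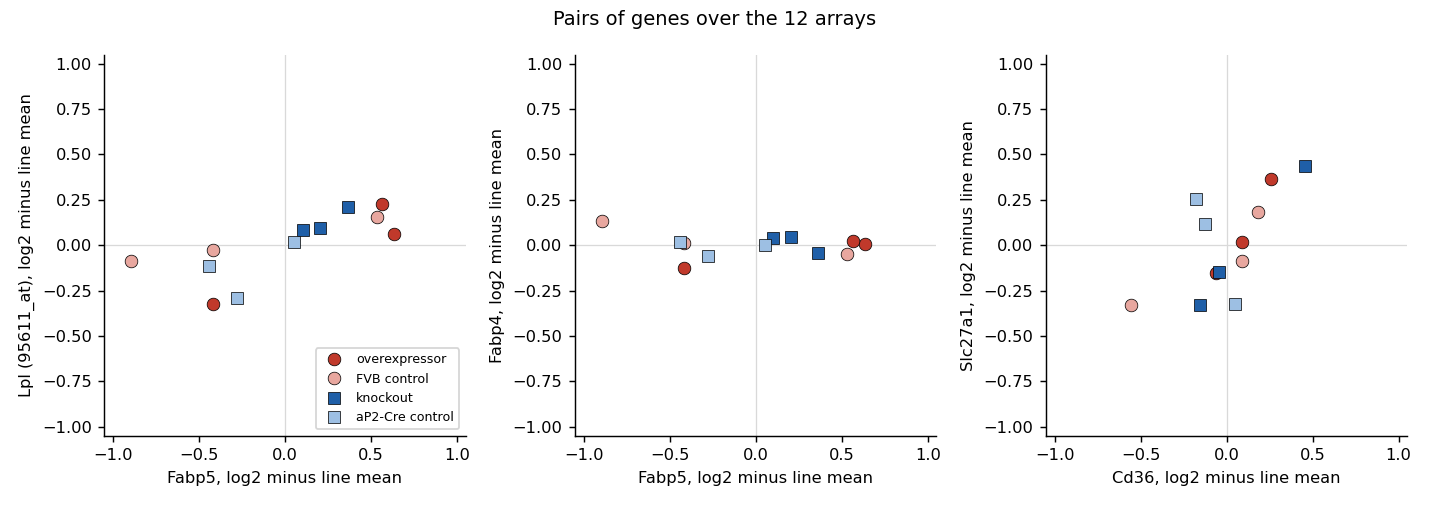
Log2 values minus the mean of their mouse line on the 12 arrays, for Fabp5 with Lpl (95611_at), Fabp5 with Fabp4, and Cd36 with Slc27a1; 1 point is 1 array, circles are the overexpressor line and squares the knockout line. Lpl is higher on arrays where Fabp5 is higher, Fabp4 stays near its line mean over the whole range of Fabp5, and Slc27a1 follows Cd36 more closely in the overexpressor line.

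Among 5701 other tested genes, those whose pattern was most like a member's over the 12 arrays, each line's mean taken away, were sought by Pearson's r; they are the highest of many and carry no test. For Lpl these were Ywhag (0.96), Rnf11 (0.94) and Ak3 (0.94). For Cd36 they were Mgst3 (0.91), Art3 (0.91) and Pef1 (0.88). For Fabp4 they were 2410002F23Rik (0.92), Slc4a3 (0.89) and Clic4 (0.89). For Fabp5, looked at after its values were seen, they were Uhrf1bp1 (0.97), Nkiras1 (0.97) and Dlat (0.95), Dlat being a subunit of the pyruvate dehydrogenase complex.

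Dlat shows the split of the overexpressor line that its choice by likeness to Fabp5 fixed. It read 821, 1829.7 and 1501 in overexpressors and 841, 805 and 1543 in controls. Slc2a4 values, given above, divided the same 6 arrays in the same way, overexpressor 1 and controls 1 and 2 being the 3 lowest. With each group's mean taken away, Slc2a4 had an r of 0.91 with Fabp5 over 12 arrays, a value also chosen after it was seen. With only each line's mean taken away, as in the search above, that r was 0.62, at rank 310 of the 5701 genes. Gpd1, the glycerol-3-phosphate dehydrogenase that supplies the backbone of triglycerides, read 1833, 4183 and 4148 in overexpressors and 2513, 1637 and 4789 in controls, with the same arrays low and high. Summed intensity of 6 adipocyte markers was 18941, 24287 and 25102 in overexpressors and 20457, 23991 and 24065 in controls, lowest on overexpressor 1 and control 1. For 3 brown fat markers the sum was 584, 1903 and 1261 in overexpressors and 875, 1476 and 2810 in controls, lowest on the same 2 arrays. Summed intensity of 8 fibroblast markers was 17783, 19256 and 22131 in overexpressors and 30632, 27592 and 20978 in controls, and on controls 1 and 2 it was higher than on the other 4 arrays. Their part in the Fabp5 values was not tested.

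Markers of other cells of the tissue were mostly lower in overexpressors, although none of them passed the test there. All 8 fibroblast markers had log2 fold changes below 0, with a median of −0.49, as had 10 of the 11 macrophage markers tested of 14 listed (median −0.27) and all 9 endothelial markers tested of 12 (median −0.22), where 29.6% of all tested probe sets lay above 0. With quantile normalization the counts below 0 were 8 of 8, 9 of 11 and 5 of 9, where 51.7% of all tested probe sets lay above 0. Adipocyte markers, 6 tested of 10 listed, had a median of 0.04. Summed macrophage intensity ran from 6125 to 6684 in overexpressors and from 5533 to 10568 in controls. In the knockout line it ran from 5121 to 6797 in knockouts and from 4895 to 6680 in aP2-Cre controls, and adipocyte markers summed to 22220, 25567 and 25217 in knockouts and 22028, 23461 and 22091 in aP2-Cre controls. Fibroblast markers were below 0 in 7 of 8 (median log2 fold change −0.14; 8 of 8 with medians subtracted or quantile normalization), and summed to 17063, 19523 and 23338 in knockouts and 25452, 19868 and 20642 in aP2-Cre controls. Smooth muscle and pericyte markers were below 0 in 5 of 7 (median −0.32), and summed to 9114, 10145 and 11803 in knockouts and 15214, 12428 and 10599 in aP2-Cre controls. In the knockout 63.0% of all tested probe sets lay above 0, 51.9% with medians subtracted and 47.1% with quantile normalization. Of 3 tested B cell markers 1 passed, the immunoglobulin gene Ighm by its brightest probe set, at 1.40 (adjusted p = 0.0160 in limma), and the other 2 were below 0. Whether these shifts had a part in the values of the members, or in those of the wider list below, was not tested.

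The other genes of the route were taken from a list of 81, of which 44 were tested, 10 were dim and 27 were named by no probe set with a single gene. In the knockout none passed the test (smallest adjusted p = 1 in limma), and 1 had an unadjusted p under 0.05, yet 38 of the 44 had a log2 fold change above 0, where 63.0% of all tested probe sets did. With array medians subtracted the count was 33 of 44 beside 51.9%, with quantile normalization 31 of 44 beside 47.1%, and without the dimmest array of each line 33 of 44 beside 46.8%. The median of the list was 0.13, beside 0.04 over all tested probe sets. By role, values were above 0 for 7 of 9 genes of lipoprotein hydrolysis and capture, 5 of 5 of membrane uptake, 4 of 4 of binding, 1 of 2 of activation, 4 of 4 of acyl-CoA hydrolysis, 7 of 9 of esterification and 10 of 11 PPAR and partner regulators. With quantile normalization these counts were, in the same order, 5 of 9, 4 of 5, 4 of 4, 1 of 2, 3 of 4, 7 of 9 and 7 of 11. Among the membrane uptake genes, Slc27a4 averaged only 78.6 in knockouts and 68.2 in aP2-Cre controls, having passed the limit of 157 through the overexpressor line.

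In the knockout 6 of the 44 separated the groups, all upward, beside the 5.62% of all tested probe sets given above. They were Acot7, Dbi, Cav1, Pparg, Med1 and Mogat2, and Mogat2 averaged only 68.8 in knockouts and 51.0 in aP2-Cre controls, having passed the limit through the overexpressor line. Acot7, an acyl-CoA thioesterase that splits activated fatty acids again, read 352, 405 and 319.95 in knockouts and 296, 310.3 and 228 in aP2-Cre controls, a log2 fold change of 0.33 (adjusted p = 1 in limma). Dbi, the acyl-CoA binding protein, read 6244, 6486 and 6071 in knockouts and 5374, 5939 and 5515 in aP2-Cre controls, a log2 fold change of 0.16. Cav1, the caveolin that shapes the membrane pits where CD36 gathers, read 4141, 4043 and 4183 in knockouts and 3892, 3517 and 3360.25 in aP2-Cre controls, a log2 fold change of 0.20. Pparg read 655, 666 and 846 in knockouts and 494, 639 and 582 in aP2-Cre controls, a log2 fold change of 0.32 (interval −0.12 to 0.75). The 4 genes given by array are among the 6 listed for their separated groups, so being higher on every knockout array was fixed by that choice. None of them passed after adjustment.

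Other genes of the list had larger fold changes in the knockout with wider spread. Gpd1 had 0.69 (interval −0.33 to 1.71), Lpin1, a phosphatidate phosphatase of triglyceride synthesis, 0.52 (−0.11 to 1.15) and Fabp3, the heart fatty acid binding protein, 0.65 (−0.50 to 1.80), on the log2 scale. All 3 were lowest on knockout control 1, at 865, 418 and 50.2. On that array the 3 brown fat markers tested, of 5 listed, summed to 462. On the other 5 arrays of the line they summed to 1902 to 2875 (2875, 1902 and 2527 in knockouts, and 2677 and 1933 in the other controls). Their log2 fold changes in the knockout ran from −0.08 to 1.28, 2 above 0 and 1 below. The median was 0.87, and none of the 3 passed the test. Fabp5 was also lowest on knockout control 1, and the part of the brown fat markers in these values was not tested. Lsr, a lipoprotein receptor, had 0.78 by its brighter probe set, in which 1 aP2-Cre control array stood at the smallest value of 22.27, and −0.08 by the other. Angptl4, a secreted inhibitor of lipoprotein lipase, had −0.26 (interval −0.71 to 0.20), with 1395, 1726 and 2773 in knockouts and 2551, 1963 and 2306 in aP2-Cre controls.

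In the overexpressor 14 of the 44 had a log2 fold change above 0 and 30 below, with a median of −0.08, beside 29.6% above 0 and a median of −0.07 over all tested probe sets. Acsm3, an activation gene counted above 0, averaged only 33.9 in overexpressors and 32.2 in controls, having passed the limit through the knockout line. None of the 44 passed the test (smallest adjusted p = 0.510 in limma). At an unadjusted p under 0.05 there were 1 higher and 3 lower, beside 92 higher and 263 lower of all 7454 tested probe sets. The groups did not overlap for 1 gene upward and 5 downward, beside 171 and 483 of the 7454 probe sets. With array medians subtracted 19 of 44 lay above 0 beside 46.2%, and with quantile normalization 23 of 44 beside 51.7%. Without the dimmest array of each line 26 of 44 lay above 0, beside 43.4%, so the balance of the list turned when overexpressor 1 was left out.

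Apoc1, an apolipoprotein known to restrain lipoprotein lipase, read 301, 422 and 369 in overexpressors and 728, 728 and 786 in controls. Every overexpressor lay far below every control, with a log2 fold change of −0.98 (interval −1.58 to −0.38, adjusted p = 0.517 in limma). Apoe, the apolipoprotein that lipoprotein receptors bind, averaged 4484 ± 296 in overexpressors and 5725 ± 850 in controls (SD, n = 3 each), a log2 fold change of −0.34 (adjusted p = 0.901 in limma). Lrpap1, a chaperone of the lipoprotein receptor family, read 399, 509.7 and 535 in overexpressors and 349, 292 and 372 in controls, a log2 fold change of 0.46 (adjusted p = 0.510 in limma). Cebpd, a transcription factor of early adipocyte differentiation, read 213, 307 and 223 in overexpressors and 700.1, 491 and 375 in controls, a log2 fold change of −0.95 (adjusted p = 0.901 in limma). Apoc1 and Apoe are also made by macrophages, whose summed marker intensity is given above, and its part in these values was not tested.

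Several genes acting beside the members had fold changes near 0 in the overexpressor. The log2 fold change was 0.02 for Angptl4, 0.05 for Dbi, −0.07 for Pparg, −0.10 for Slc27a4, another fatty acid transporter, and −0.14 for Acsl5, another acyl-CoA synthetase. Fabp3 had −0.49, with an interval of −1.64 to 0.66.

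**Figure D5:**
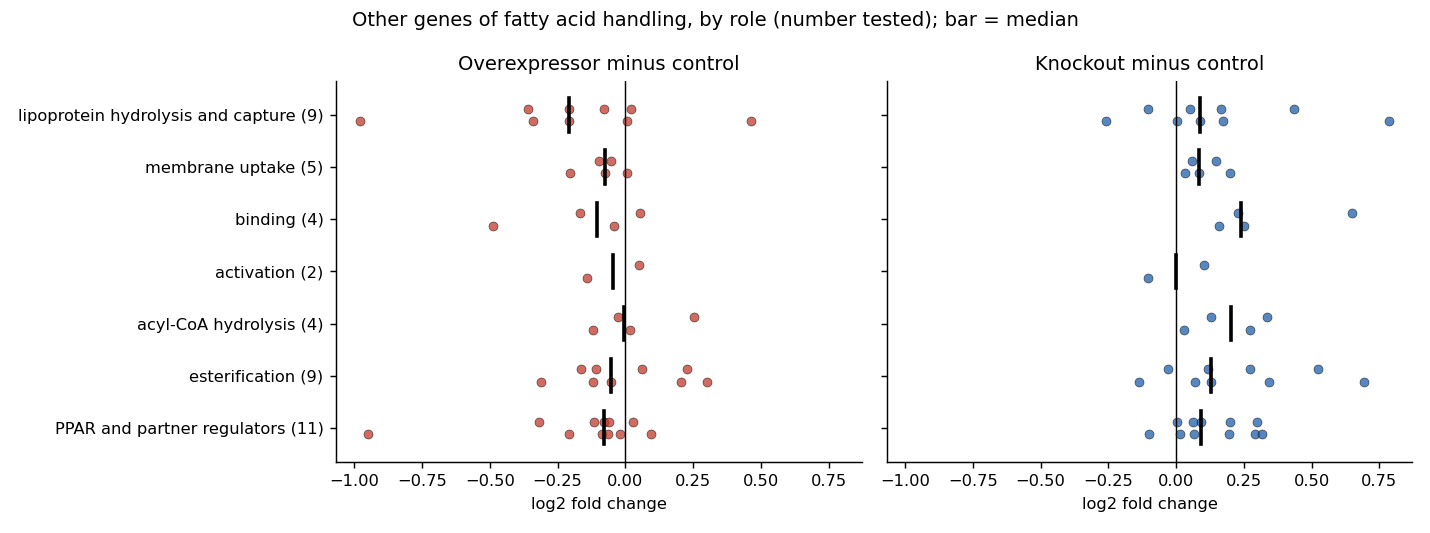
Log2 fold change of the 44 tested genes of the wider list by role, overexpressor minus control on the left and knockout minus control on the right; 1 point is 1 gene, the short bar is the median of the role, and the number tested is in brackets. In the knockout 38 of 44 points lie right of 0 and in the overexpressor 14 of 44, beside 63.0% and 29.6% of all tested probe sets.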

How the data were processed

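RNA from perigonadal fat of 12 mice was measured on 12 Affymetrix arrays after biotin labelling at a core facility, per the labels. The authors deposited 1 linear intensity per probe set for each array; how they summarised and scaled it is not given in the sources used here. Groups came from the sample titles, because the genotype field lists controls under their mutant's genotype. The series' design text names 3 mice per genotype, and no arrays of a group were closer than 0.187 (root mean square log2 difference), so each was taken as 1 replicate. Arrays give no read depth, and their number limits the precision.

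The table's 10th percentile, 36.92, was added before taking log2, so log2 fold changes understate the changes of dim probe sets. The dimmest 4968 probe sets (40%, by their mean on all arrays) were dropped and 7454 tested, and for each of 5707 genes the brightest probe set stood for the gene. The 4 group means entered 1 linear model, using limma 3.58.1 and R 4.3.3 (lmFit, then trended eBayes; residual degrees of freedom were 8 and prior ones 4.27), with Benjamini-Hochberg adjustment over all tested probe sets; intervals are 95%. The fit was tested on simulated data. Permuting 3 against 3 arrays exactly gives no two-sided p under 0.1, and this was not done for single genes. Correlations and figures were made in Python 3.11.15 with matplotlib 3.10.9.

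By the platform annotation 10833 probe sets carry a single symbol, 396 carry several and 1193 carry none; 10817 single symbols were found in the GRCm38.p6 gene table and brought up to date. No gene coordinates are given, as the array names no build; promoter windows are RefSeq's. The named genes were the members; per role and comparison, the 2 wider-list genes with the smallest p and any past the threshold; Angptl4, Fabp3, Dbi, Acsl5, Slc27a4, Gpihbp1, Dgat2 and Pparg (no probe set names Gpihbp1 or Dgat2 alone); and for Fabp4, Cd36, Lpl and Acsl1, the 3 genes with the most similar pattern. Some genes under this rule are given by counts only, and Cav1, Gpd1, Slc2a4 and Dlat are shown for their per-array values. Members, lists and tests were chosen with earlier results of these data known. Alternatives changed the added constant, the limit on dim probe sets, the scaling, the arrays in the fit, the replicate block, the variance trend, array weights, the probe set standing for a gene and the arrays left out.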

Additional observations from a re-analysis of the deposited data

How the results depend on the processing

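No member passed the limma test under any alternative other than array weights, where 1 did in the overexpressor (Fabp5, log2 fold change 1.25). The sign of Lpl in the overexpressor, −0.02 as reported, became 0.034 with array medians subtracted, 0.026 with quantile normalization, 0.15 with array weights and 0.13 without the dimmest arrays of both lines, an alternative chosen after seeing the data; Fabp4 became −0.0066 (medians, knockout), −0.018 (weights, knockout), 0.059 (quantile, overexpressor) and 0.028 (quantile, difference), and Slc27a1 in the knockout became 0.023 without the dimmest arrays. The median over members in the knockout was 0.031 with array weights, against 0.21. With 1 array left out at a time, log2 fold changes ran from −0.14 to 0.13 for Lpl, −0.043 to 0.33 for Cd36 (both overexpressor), −0.016 to 0.29 for Cd36 and −0.25 to 0.13 for Slc27a1 (both knockout), and for the difference from −0.24 to 0.47 for Fabp5 and from −0.21 to 0.20 for Cd36. Over all probe sets, 6 passed in the overexpressor, 9 in the knockout and 12 for the difference. The overexpressor count became 11 with medians subtracted, 11 with quantile normalization, 1 with only the line's own 6 arrays, 419 with weights and 3 to 21 with 1 array left out; the knockout count became 14 with weights and 6 to 11 with 1 array left out; and the difference count became 1 without the limit on dim probe sets, 43 with weights, 1 without the dimmest arrays and 1 to 13 with 1 array left out. The cause was not tested. Deviations of same-numbered mutant and control arrays correlated at −0.06, −0.09 and 0.02 in the overexpressor line. In the knockout line they correlated at −0.23, −0.04 and −0.35. With 3 such pairs per line, these values cannot show whether same-numbered mice were littermates or handled together. With a replicate block 5 probe sets passed in the overexpressor, 0 in the knockout and 1 for the difference, and no member call changed. Acsl4 had no value once the dimmest 60% were dropped, or with only the overexpressor line's arrays.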
